A study of Homo sapiens and Mus musculus with 8 samples.

Results

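B16N, a mouse melanoma cell line, was profiled by RNA-seq without treatment and after 5 weeks of UV exposure, and the genes considered here are all those with a symbol and a p-value in the authors' comparison of these samples. They number 14821 of the 15966 symbols found in the 3 mouse comparisons of the series. The untreated B16N control was labelled day 0 and the UV sample week 5, and each was 1 sample in the labels. The same control also served for B16N after 2 weeks of UV and for a B16N clone that carries CFP-tagged wild-type Orai1, the pore subunit of a Ca2+ entry channel. All B16N cells were kept in DMEM with fetal bovine serum, per the labels. Nothing in the labels says that the samples came from separate cultures, and how many libraries stand behind a p-value is not known. The p-values therefore compare these libraries and not the conditions, with no replicate check here, and UV cannot be told apart from the weeks the cells were grown.

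The transcription factor NRF2 is held at a low level by its partner KEAP1 and, when oxidants or electrophiles disturb that pairing, switches on genes for glutathione synthesis, detoxifying enzymes and iron and haem handling. The integrated stress response works through ATF4, which raises genes of amino acid uptake and synthesis when cells lack amino acids, misfold proteins or are oxidatively stressed. Pigment cells make melanin in the melanosome, an organelle related to the lysosome, and the glutathione and cysteine supply of the cell bears on which kind of melanin is formed.

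The values are log2 changes of the UV sample against control, each with its standard error (SE), worked out from the deposited change and test statistic. No level of any gene in a sample was available, so neither depth nor absolute expression is known, and fewer cells expressing a gene cannot be told apart from less RNA per cell. A gene passed when its deposited p, adjusted by the Benjamini-Hochberg method over all 14821 genes, was under 0.05, and no change is printed where the SE was above 1. Of all genes, 708 passed (4.78%), 455 higher (3.07%) and 253 lower (1.71%), and 269 (1.81%) of them changed at least 2-fold, 222 higher (1.5%) and 47 lower (0.317%). However, 4339 symbols carried exactly the same values as at least 1 other symbol, in 1133 sets of up to 700 symbols, and what set these values cannot be told. Among the 10482 genes with values of their own, 578 passed (5.51%), 370 higher (3.53%) and 208 lower (1.98%), and 214 (2.04%) changed at least 2-fold, 173 higher (1.65%) and 41 lower (0.391%). These genes are used for all gene groups below. The groups were chosen with earlier results of these data known, so their counts and medians are descriptions only. Where the 2-week values are given beside those at 5 weeks, both were taken against the same control, and 381 of 10166 genes (3.75%) had changes that differed between the times by a normal test of the difference, 235 higher (2.31%) and 146 lower (1.44%) at 5 weeks.

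**Figure D1:**
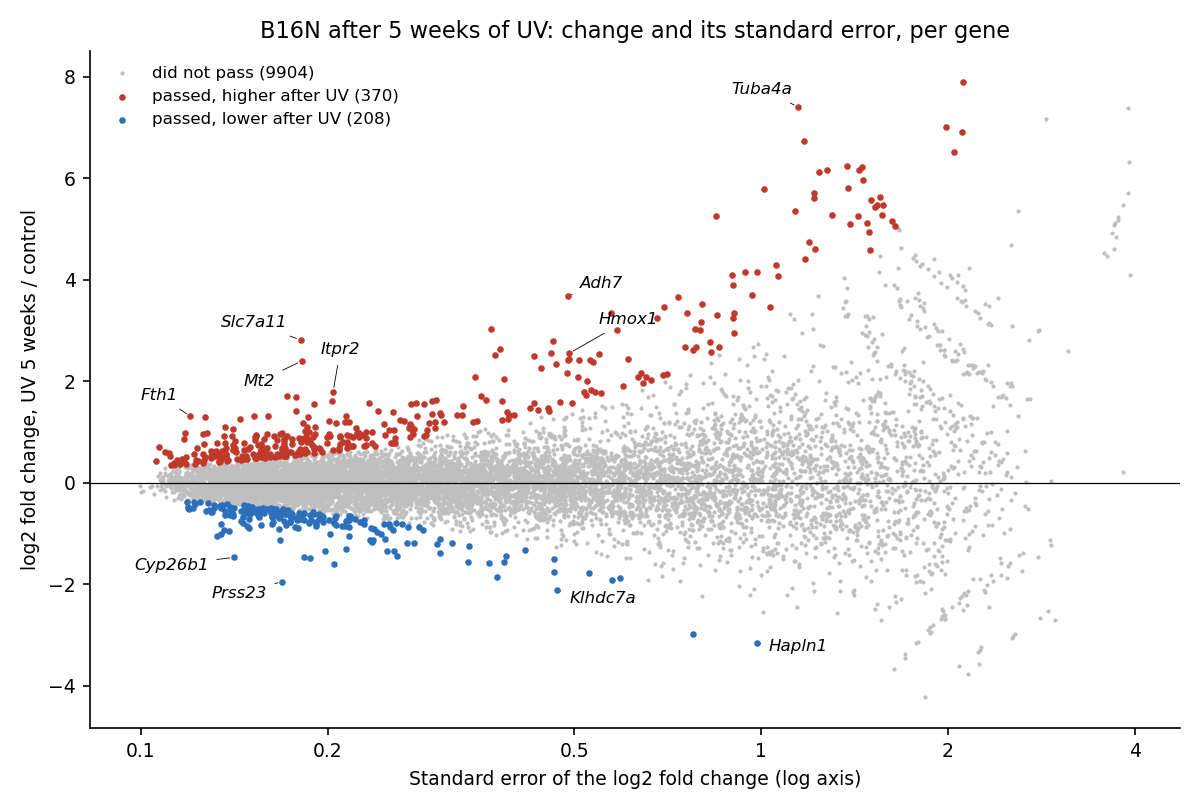
Each point is a gene with values of its own; the x axis is the SE of its log2 change (log axis), the y axis the log2 change of UV for 5 weeks over control, and colours mark the 370 genes that passed higher and the 208 that passed lower. Points that passed spread to larger changes as the SE grows, and the 37 that passed with an SE above 1 were all higher.

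The precision of a change set which genes could pass. The median SE over all genes was 0.379 with quartiles of 0.196 and 1.28, and at those 3 values a log2 change had to reach 1.15, 0.60 and 3.88 to pass. Of 1224 genes with an SE of at most 0.15, 10.5% passed, 76 higher and 53 lower. Of 1499 genes with an SE above 1, 2.47% passed, 37 higher and 0 lower. Where the SE was between 0.15 and 0.2, 103 of 1998 genes were higher and 93 lower. Higher and lower genes numbered 70 and 43 at an SE of 0.2 to 0.3, 38 and 14 at 0.3 to 0.5, and 46 and 5 at 0.5 to 1. The excess of higher genes was thus present in every SE range and smallest at 0.15 to 0.2. It was complete where the SE was above 1, as the right edge of the plot of change against SE shows. With the adjustment redone over only the genes with an SE of at most 0.3, shared values included, 72 genes were higher and 26 lower by at least 2-fold. The median log2 change of the 5241 genes with an SE of at most 0.3 was -0.013. How the deposited changes were normalised is not known, and normalisation alone can give so small a median. Whether the typical gene was displaced therefore cannot be told from it. The commonly stable genes had a median of 0.22 over 12 members, and of these the elongation factor gene Eef2 rose by 0.41 per the authors' deposited table (SE 0.12).

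Cell type markers were read as changes, which without levels cannot check the pigment cell label. Of 7 defining melanocyte markers with values of their own, 5 passed and all 5 were higher: Tyr, Dct, Pmel, Mlana and Tyrp1. The others did not pass, with Gpr143 at 0.32 (SE 0.22) and the lineage regulator gene Mitf at 0.60 (SE 0.56) per the authors' deposited table. Sox10, another lineage regulator, stood at -0.60 per the authors' deposited table but with the very values of another symbol, so no direction is drawn for it. Markers of other cell types were sparse. Of 16 myeloid markers 8 had a value and 2 had their own, of which the lysozyme gene Lyz2 was higher by 3.47 per the authors' deposited table (SE 0.70). None of the lymphocyte (2 of 12 present), fibroblast (1 of 9), endothelial (3 of 8) and keratinocyte (3 of 9) markers had values of their own. Whether other cells had a part in the results was not tested.

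After 5 weeks of UV, genes of cystine uptake, glutathione synthesis and glutathione conjugation were higher. The largest test statistic of all genes was that of Slc7a11, which encodes the cystine-importing subunit of system xc-. Its log2 change was 2.82 per the authors' deposited table (SE 0.18, Benjamini-Hochberg adjusted p = 1.84e-50), a 7.04-fold rise, against -0.71 (SE 0.19) at 2 weeks. Its partner chain Slc3a2 rose by 0.82 (SE 0.17) per the authors' deposited table. Both subunits of glutamate-cysteine ligase, the rate-limiting step of glutathione synthesis, were higher as well, the modifier Gclm by 1.62 (SE 0.20) and the catalytic subunit Gclc by 0.75 (SE 0.22) per the authors' deposited table. The next enzyme, glutathione synthetase (Gss, 0.55, SE 0.20), and the reductase that recycles glutathione (Gsr, 0.56, SE 0.23) did not pass, per the authors' deposited table. In all, 4 of 9 genes of this group were higher and 0 lower, with a median of 0.56 beside 0.0069 over all genes with values of their own. At 2 weeks the median of the same genes was -0.038.

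Among glutathione transferases and peroxidases, 9 of 20 were higher and 1 lower, with a median of 1.05, or 0.64 over the 12 with an SE of at most 0.5. The membrane-bound transferase gene Mgst1 rose by 2.08 (SE 0.35) per the authors' deposited table. Of the cytosolic transferases, Gstm1 rose by 1.58 (SE 0.23), Gstt3 by 1.20 (SE 0.34) and Gstm2 by 1.0 (SE 0.23) per the authors' deposited table. Gsta2 and Gsta3 (2.09, SE 0.51, and 4.15, SE 0.94) and Gstp1 and Gstp2 (0.74, SE 0.19, and 0.99, SE 0.17) also passed higher per the authors' deposited table, and, as with Gstm1 and Gstm2, each pair belongs to a family of closely related genes, so their separate values are uncertain if the counting could not tell them apart, which was not checked here. The single member that fell was Gpx1, the main cytosolic glutathione peroxidase and a selenoprotein, at -1.0 (SE 0.13, Benjamini-Hochberg adjusted p = 3.83e-11) per the authors' deposited table. The lipid peroxide reductase gene Gpx4 stood at 0.34 (SE 0.18) per the authors' deposited table and did not pass. Another peroxidase gene, Gpx8, rose by 0.53 (SE 0.17) per the authors' deposited table, so the peroxidases went both ways.

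Selenoprotein genes, a group drawn up after the values were seen, were mixed: of 14, 1 was higher, Selenom at 0.88 (SE 0.23), and 2 were lower, Gpx1 and Selenon, the latter at -0.67 (SE 0.17) per the authors' deposited table. The thioredoxin and peroxiredoxin group had 2 of 22 members higher and 0 lower. Thioredoxin itself (Txn1) rose by 0.69 (SE 0.14) and catalase (Cat), which breaks down hydrogen peroxide, by 0.69 (SE 0.14) per the authors' deposited table. Prdx2 (0.02, SE 0.13) and the superoxide dismutase gene Sod1 (0.11, SE 0.12) were measured with similar precision per the authors' deposited table and did not pass. The quinone and carbonyl reducing enzymes had 5 of 17 higher and 0 lower. Of these Akr1b8, an aldo-keto reductase gene, rose by 0.93 (SE 0.20) and the fatty aldehyde dehydrogenase gene Aldh3a2 by 0.89 (SE 0.18) per the authors' deposited table. The carbonyl reductase gene Cbr1 (Benjamini-Hochberg adjusted p = 0.00526) and the quinone reductase gene Nqo1 (adjusted p = 4.29e-04) were higher too, from the p-values of the authors' deposited table, with SEs too large for a fold. In the pentose phosphate group that supplies NADPH, 2 of 12 were higher, transaldolase (Taldo1, 0.76, SE 0.16) and transketolase (Tkt, 0.42, SE 0.13) per the authors' deposited table.

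Of the haem and iron group, 5 of 25 members were higher and 1 lower. Haem oxygenase (Hmox1), which opens the haem ring and frees its iron, rose by 2.56 (SE 0.49) per the authors' deposited table. The haem transporter gene Slc48a1, which moves haem out of lysosomes, rose by 1.55 (SE 0.29), and Blvrb, a biliverdin reductase gene counted with the reducing enzymes, by 1.48 (SE 0.42) per the authors' deposited table. Ferritin heavy chain (Fth1), which stores the iron, rose by 1.31 (SE 0.12, Benjamini-Hochberg adjusted p = 2.16e-24) per the authors' deposited table. The related Hmox2 (-0.46, SE 0.21) and Blvra (-0.20, SE 0.33) did not pass per the authors' deposited table, so haem breakdown genes did not move as a group. The iron exporter ferroportin (Slc40a1) rose by 0.93 (SE 0.29) and the metalloreductase gene Steap2 by 0.76 (SE 0.18) per the authors' deposited table. The member that fell was ceruloplasmin (Cp), the ferroxidase that works with ferroportin, at -1.13 (SE 0.24) per the authors' deposited table. At 2 weeks Slc40a1 stood at -0.69 (SE 0.28) and Cp at 0.40 (SE 0.36) per the authors' deposited table for that time, where neither passed.

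Metallothioneins, small cysteine-rich proteins that bind zinc and copper, were higher. Mt2 rose by 2.40 (SE 0.18, Benjamini-Hochberg adjusted p = 5.12e-36) and Mt1 by 0.98 (SE 0.12) per the authors' deposited table. Of the 20 metal-handling genes the third that passed was the zinc importer gene Slc39a10, which fell by 0.54 on the log2 scale (SE 0.16) per the authors' deposited table. Among the regulators of NRF2, 1 of 11 passed: the autophagy receptor gene Sqstm1, whose product binds KEAP1, rose by 1.71 (SE 0.17, Benjamini-Hochberg adjusted p = 4.17e-20) per the authors' deposited table. The messenger RNAs of NRF2 itself (Nfe2l2, -0.23, SE 0.12) and of Keap1 (-0.05, SE 0.17) did not pass per the authors' deposited table.

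**Figure D2:**
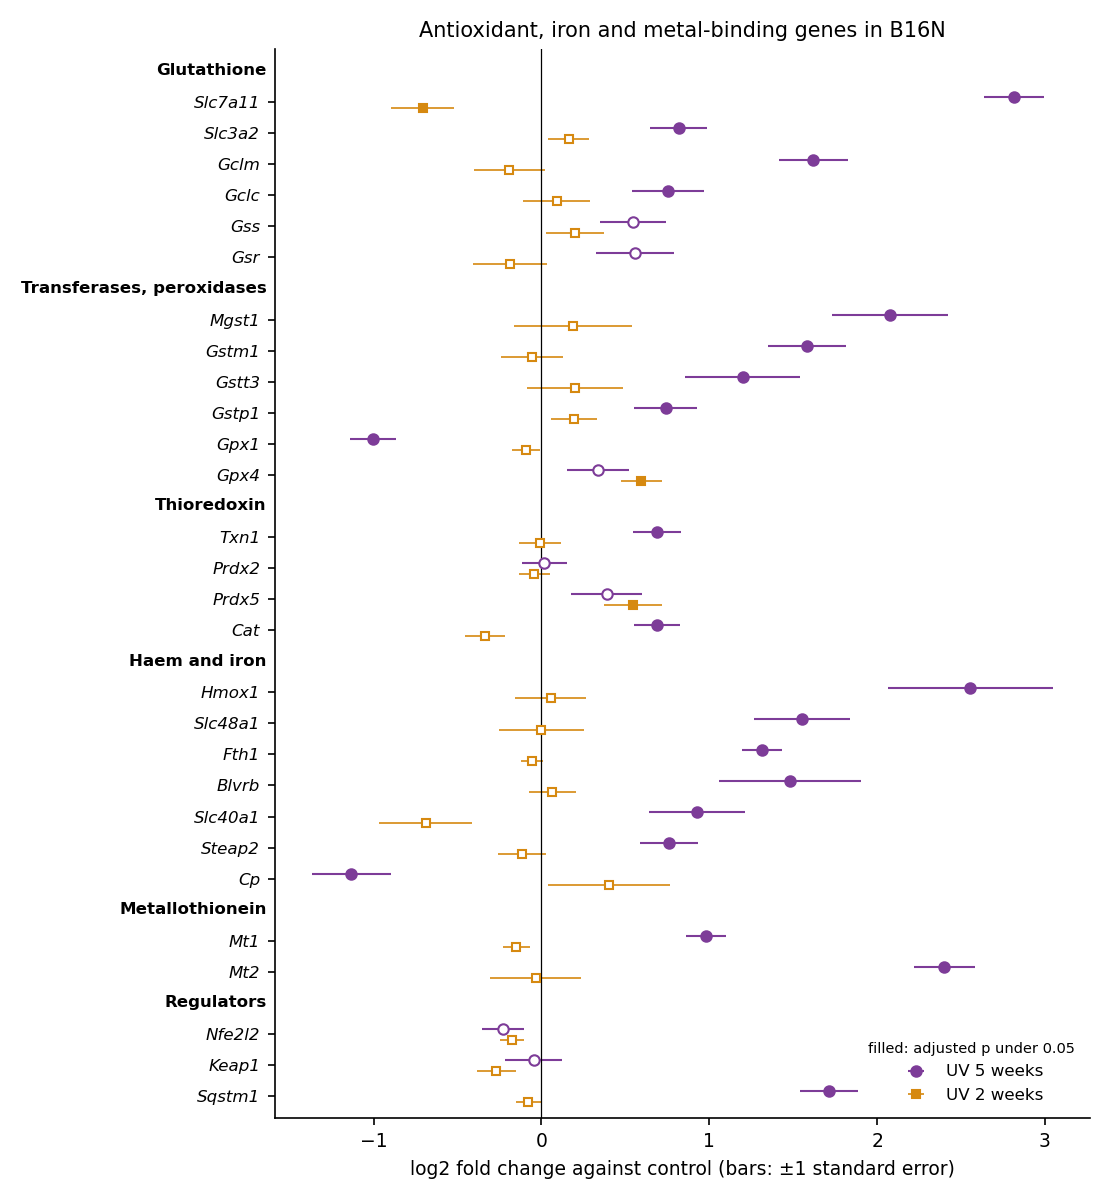
Log2 change against control (x axis) of antioxidant, iron and metal-binding genes (y axis) after 5 weeks (circles) and 2 weeks (squares) of UV, with bars of 1 SE and filled marks for an adjusted p under 0.05. At 5 weeks Slc7a11, Hmox1 and Mt2 lie at or above 2.40 while Gpx1 and Cp lie near -1, and the 2-week marks of most genes lie near 0.

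Integrated stress response genes made up a second group of rises, with 9 of 19 higher and 0 lower and a median of 0.39. The mRNA of ATF4 itself (Atf4) rose by 0.78 (SE 0.15) and that of the related factor Atf5 by 1.61 (SE 0.38) per the authors' deposited table. Feedback genes of the response were higher: Trib3, a pseudokinase gene that restrains ATF4, by 2.41 (SE 0.49) and Ppp1r15a, whose product restores translation, by 1.51 (SE 0.33) per the authors' deposited table. Ddit4, which holds back mTORC1, rose by 1.20 (SE 0.21) and the translation repressor gene Eif4ebp1 by 0.73 (SE 0.16) per the authors' deposited table. These 2 genes both restrain cap-dependent translation. The stress cytokine gene Gdf15 (2.13, SE 0.69), the transcription factor gene Cebpb (0.98, SE 0.22) and the tRNA exportin gene Xpot (0.93, SE 0.15) were the other members that rose per the authors' deposited table. The rise was not shared by the whole list: of the 19 changes 15 were positive and 4 negative, ranging from -0.40 to 2.41. Several classical members could not be read, because Ddit3 carried the values of Lmln (2.52), Atf3 those of Mrpl54 (1.45) and Chac1 those of Fgfr1 (1.51) per the authors' deposited table. These were the highest of 9 members with shared values, which went down to -0.07 and did not all pass. At 2 weeks Trib3 was lower, at -0.66 (SE 0.14) per the authors' deposited table for that time.

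Serine and one-carbon metabolism, whose mitochondrial branch supplies formate and glycine, had 8 of 32 members higher and 0 lower. Of the mitochondrial folate enzymes, Aldh1l2, which makes NADPH, rose the most of the group, by 2.63 (SE 0.38), Shmt2 by 0.92 (SE 0.16) and Mthfd2 by 0.55 (SE 0.13), while Mthfd1l (0.28, SE 0.20) did not pass, per the authors' deposited table. Of the serine synthesis enzymes, the transaminase Psat1 rose by 0.53 (SE 0.11) while the dehydrogenase Phgdh stood at 0.47 (SE 0.18) and did not pass per the authors' deposited table. Bcat1, which transaminates branched-chain amino acids, rose by 1.23 (SE 0.27) per the authors' deposited table. Thus both the folate and the transaminase arms had members that rose. Amino acid transporters had 3 of 17 higher and 0 lower. They were the neutral amino acid carriers Slc1a5 (0.78, SE 0.20), Slc38a1 (0.56, SE 0.13) and Slc38a2 (0.53, SE 0.13) per the authors' deposited table. Of 17 cytosolic aminoacyl tRNA synthetases, 16 had positive changes and 1 passed, the seryl-tRNA synthetase gene Sars at 1.09 (SE 0.19) per the authors' deposited table. The median of the 17 was 0.34.

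Chaperones and degradation factors of the endoplasmic reticulum (ER) had 6 of 41 higher and 0 lower. Herpud1, a gene of ER-associated degradation, rose by 1.19 (SE 0.21) and the chaperone gene Hsp90b1 by 0.76 (SE 0.13) per the authors' deposited table. The factors of the remaining arms of the unfolded protein response, Xbp1 (0.91, SE 0.22) and Atf6 (0.69, SE 0.16), rose per the authors' deposited table. The master ER chaperone Hspa5 stood at 0.25 (SE 0.12) per the authors' deposited table and did not pass. Among 30 genes of ER-to-Golgi transport, gathered after the values were seen, 1 passed: Kdelr3, a receptor that returns ER residents from the Golgi, at 2.56 (SE 0.46) per the authors' deposited table. Its relatives Kdelr1 and Kdelr2 did not pass, at 0.13 and -0.18 per the authors' deposited table. Cytosolic heat shock genes had 2 of 30 higher and 1 lower, and proteasome genes 1 of 34 higher. The small chaperone Hspb8 rose by 1.83 (SE 0.53) and mitochondrial Hspa9 by 0.45 (SE 0.12), whereas Hspb2 fell by 0.51 on the log2 scale (SE 0.16) per the authors' deposited table.

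Melanosome genes were higher in 11 of 26 cases and lower in 0, with a median of 0.60, against 0.42 at 2 weeks. Slc7a11, described above, is one of them because its import of cystine bears on the colour of melanin. Tyrosinase (Tyr), which starts melanin synthesis, rose by 1.32 (SE 0.15) and dopachrome tautomerase (Dct) by 0.85 (SE 0.15) per the authors' deposited table, while Tyrp1 rose by 0.36 (SE 0.11). The melanosomal transporter genes Slc24a5 and Slc45a2 rose by 0.86 (SE 0.16) and 0.71 (SE 0.15) per the authors' deposited table. The fibril protein gene Pmel rose by 0.75 (SE 0.15), Mlana by 0.53 (SE 0.13) and Dtnbp1, a gene of melanosome biogenesis, by 0.65 (SE 0.17) per the authors' deposited table. Enzymes, transporters and structural proteins were thus all represented. Tyr, Dct, Tyrp1, Pmel and Mlana are the same genes as the melanocyte markers given above. Sytl2, an effector of Rab27a in vesicle docking, showed the second largest change, 2.27 (SE 0.44) per the authors' deposited table.

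Of the list of lineage and dedifferentiation regulators, 0 of 23 were higher and 4 lower, and 11 of the 23 changes were positive. Mc1r, the receptor for melanocyte-stimulating hormone, fell by 0.65 on the log2 scale (SE 0.14) per the authors' deposited table. The transcription factor gene Sox4 fell by 1.05 on the log2 scale (SE 0.13) per the authors' deposited table. The receptor tyrosine kinase genes Axl, known as a marker of dedifferentiated melanoma cells, and Erbb3 stood at -1.48 (SE 0.19) and -1.02 (SE 0.24), both lower, per the authors' deposited table. The neural crest factors Pax3 (0.16, SE 0.12) and Zeb2 (-0.19, SE 0.13) did not pass per the authors' deposited table. Mc1r was at 0.41 (SE 0.079) after 2 weeks per the authors' deposited table for that time.

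Lysosomal hydrolases had 10 of 35 higher and 0 lower, and 32 of the 35 changes were positive, with a median of 0.36. The cathepsin genes Ctsh (2.63, SE 0.78), Ctsb (1.09, SE 0.14) and Ctsd (0.95, SE 0.13), which encode proteases, rose per the authors' deposited table. Glycosidases rose as well, namely the fucosidase Fuca2 by 1.0 (SE 0.24) and the galactosidase Gla by 0.93 (SE 0.23) per the authors' deposited table. The serine carboxypeptidase gene Scpep1 (0.91, SE 0.14), the saposin precursor Psap (0.69, SE 0.21) and acid lipase Lipa (0.69, SE 0.12) were further members that rose per the authors' deposited table. Proteases, glycosidases and lipid-degrading proteins were thus all among them. Of lysosomal membrane genes, 2 of 24 were higher, Lamp2 by 1.10 (SE 0.19) and Gpnmb by 0.59 (SE 0.11), while Lamp1 (0.12, SE 0.13) did not pass per the authors' deposited table. The proton pump (V-ATPase) had 3 of 15 subunits higher and 0 lower: Atp6v1b2 (0.63, SE 0.16), Atp6v1g1 (0.60, SE 0.17) and Atp6v0d1 (0.56, SE 0.14) per the authors' deposited table. Autophagy genes beyond Sqstm1 had 1 member that rose, the membrane conjugate gene Gabarap at 0.42 (SE 0.13) per the authors' deposited table. The MiT factors Tfeb (-0.11, SE 0.49) and Tfe3 (-0.10, SE 0.36) did not pass per the authors' deposited table.

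**Figure D3:**
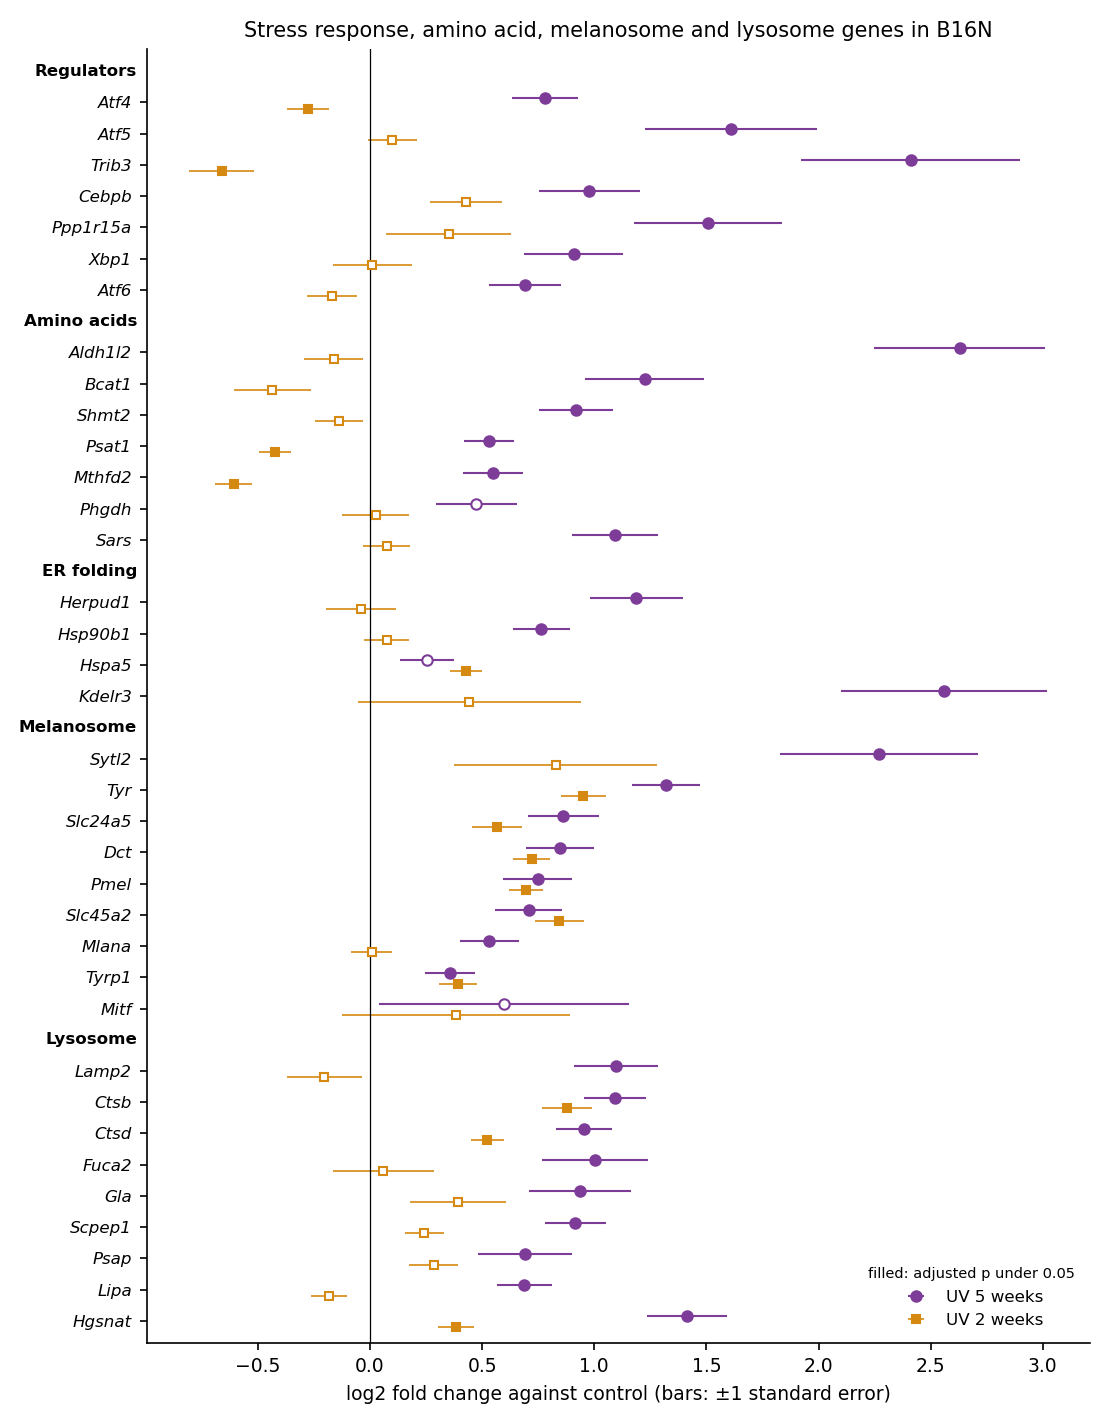
Log2 change against control (x axis) of stress response, amino acid, melanosome and lysosome genes (y axis) after 5 weeks (circles) and 2 weeks (squares) of UV, with bars of 1 SE and filled marks for an adjusted p under 0.05. Trib3 lies at 2.41 at 5 weeks and at -0.66 at 2 weeks, whereas Tyr and Dct lie to the right of 0 at both times.

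Sterol and lipid genes were a smaller group of rises. Of 19 cholesterol synthesis genes 7 were higher and 0 lower, with a median of 0.40. Farnesyl diphosphate synthase (Fdps) rose by 1.29 (SE 0.19), the demethylase Cyp51 by 0.87 (SE 0.12), the oxidase Msmo1 by 0.64 (SE 0.13) and squalene epoxidase (Sqle) by 0.40 (SE 0.13) per the authors' deposited table. Among regulators of sterol supply 2 of 20 were higher, Lipa and the SREBP-retaining protein gene Insig1 (0.92, SE 0.18) per the authors' deposited table. Of 26 fatty acid and phospholipid genes, 3 were higher: the desaturase Scd1 (1.06, SE 0.14), the elongase Elovl4 (1.35, SE 0.29) and the monoglyceride lipase gene Mgll (4.17, SE 0.98) per the authors' deposited table.

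Genes of mitochondria moved in part. Of 14 genes encoded in the mitochondrial genome, 6 were higher and 0 lower, led by the cytochrome oxidase gene mt-Co1 (0.92, SE 0.14) and the complex I gene mt-Nd4 (0.68, SE 0.16) per the authors' deposited table. Of the nuclear-encoded subunits, 2 of 40 were higher for complex I and 2 of 35 for complexes II to V, and no test compared these shares with that of the mitochondrial genome. In complex I, 35 of 40 changes were positive with a median of 0.34, against 0.29 for the same genes at 2 weeks. For complexes II to V the medians were 0.11 at 5 weeks and 0.22 at 2 weeks. In complex III, Uqcrq rose by 0.80 (SE 0.18) and Uqcr10 by 0.56 (SE 0.17) per the authors' deposited table. Mitochondrial ribosomal proteins had 1 of 62 higher and 1 lower, and cytosolic ribosomal proteins 2 of 59 higher, shares at or below the 5.51% of all genes. Glycolysis had 1 of 20 higher, the aldolase gene Aldoa at 0.44 (SE 0.11) per the authors' deposited table.

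**Figure D4:**
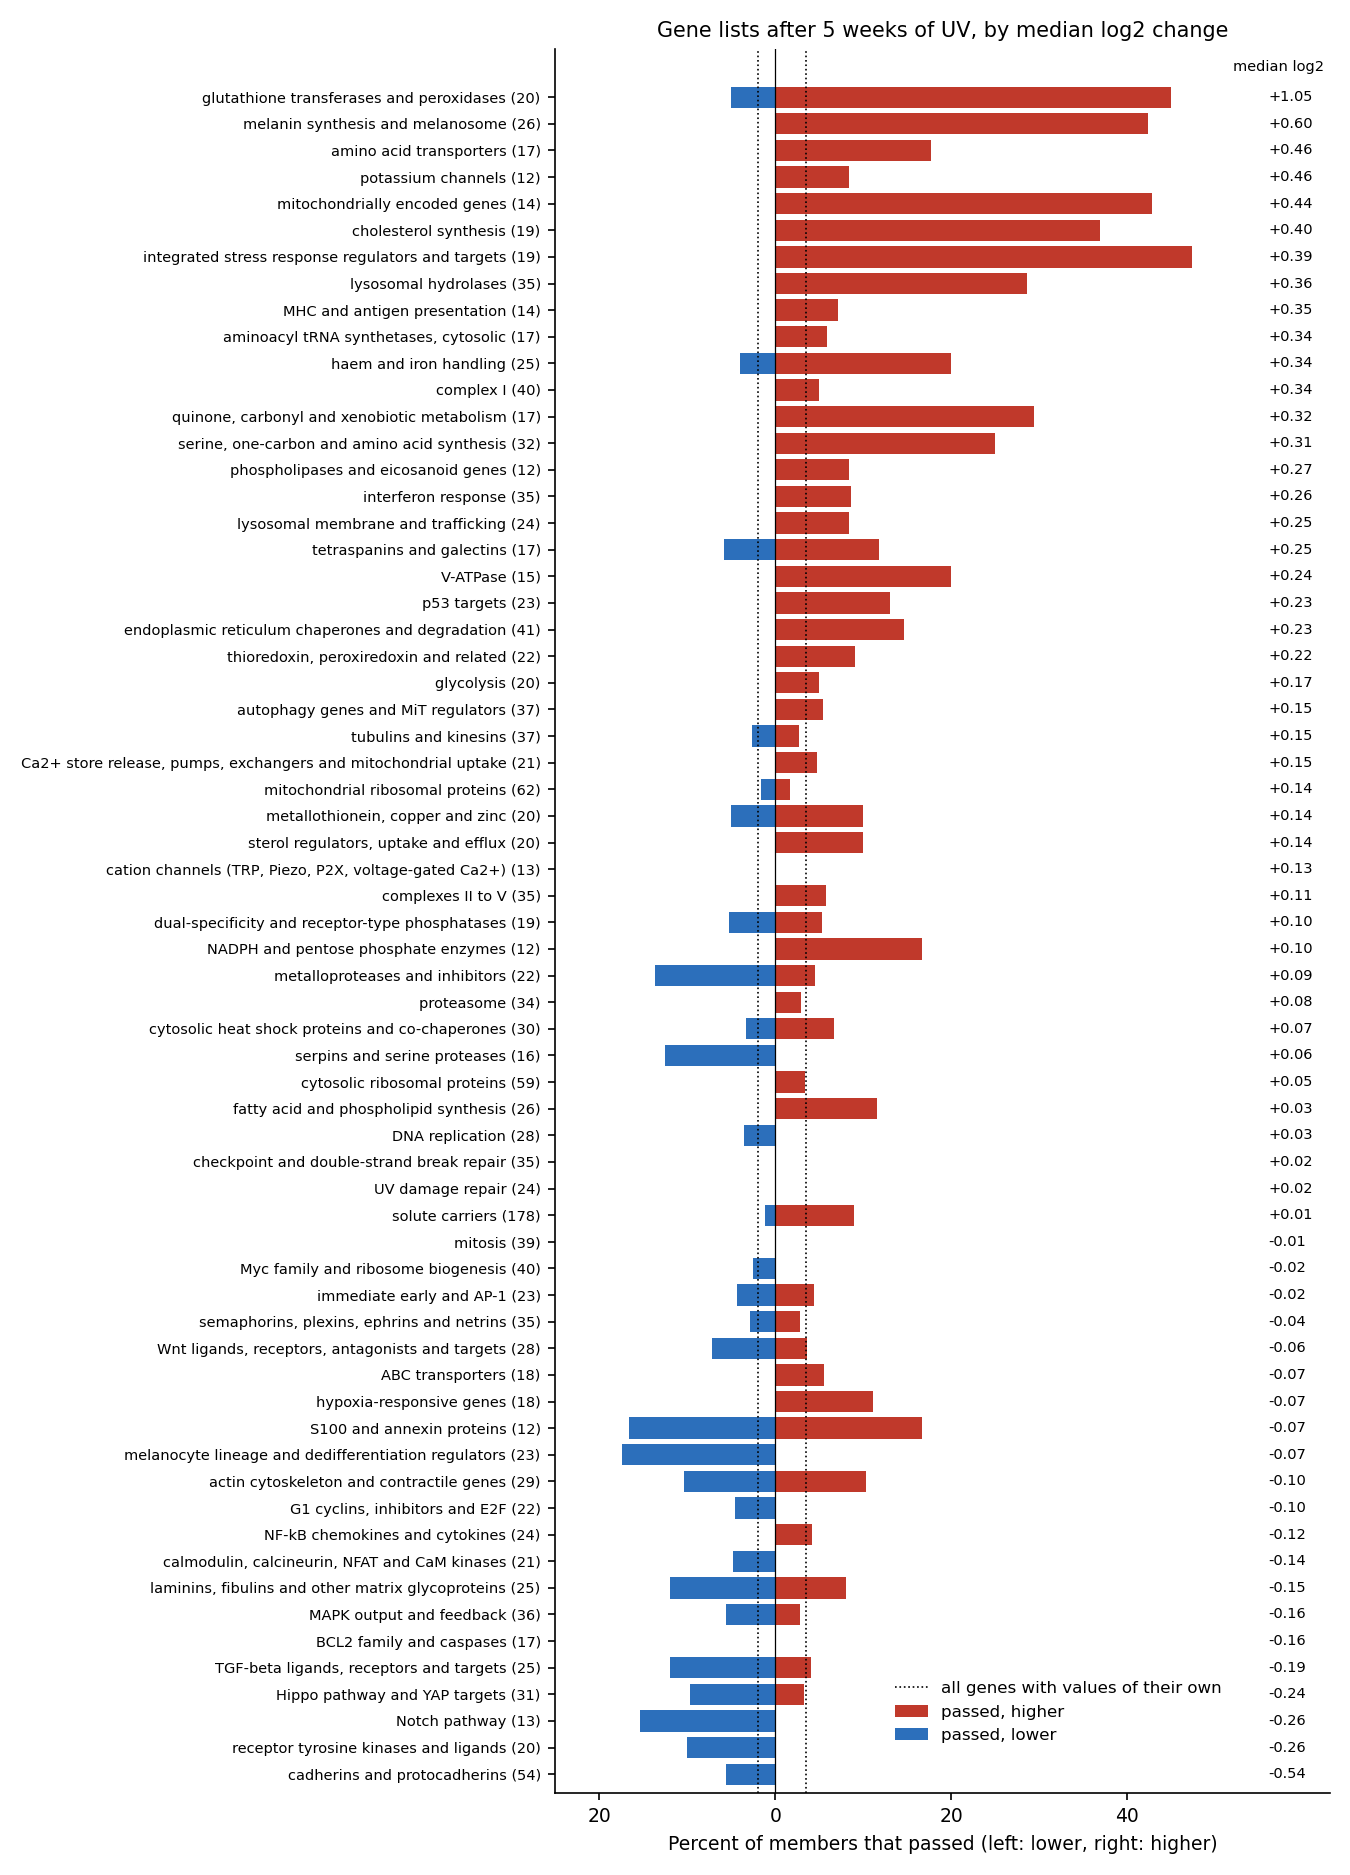
Percent of each gene list's members that passed (x axis, red to the right for higher and blue to the left for lower), for lists (y axis) of at least 12 members with values of their own, ordered by median log2 change, which is printed at the right; dotted lines mark the 3.53% higher and 1.98% lower among all genes with values of their own. The longest red bars are those of the integrated stress response, glutathione transferase and peroxidase, mitochondrially encoded, and melanosome lists.

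Genes of growth and division showed few changes that passed, with the exception of Myc. This growth regulator fell by 1.34 on the log2 scale (SE 0.20, Benjamini-Hochberg adjusted p = 4.10e-09) per the authors' deposited table, against -0.14 (SE 0.11) at 2 weeks. It was the single member of the 40 in the Myc and ribosome biogenesis list that passed, and 5 of the 40 had an unadjusted p under 0.05. The ubiquitin ligase subunit gene Skp2 fell by 0.57 on the log2 scale (SE 0.13) and the replicative helicase gene Mcm4 by 0.51 (SE 0.16) per the authors' deposited table, each the single member of its list that passed. Of 39 mitosis genes, 24 UV damage repair genes and 35 checkpoint and double-strand break repair genes, 0 passed under the Benjamini-Hochberg adjustment of the deposited p, and 3, 2 and 1 of them had an unadjusted p under 0.05. Their medians were -0.013, 0.016 and 0.021. Among p53 targets 3 of 23 were higher: Gdf15, already given, the kinase gene Plk2 (1.33, SE 0.39) and Mdm2 (0.56, SE 0.12), which encodes the ligase that degrades p53, per the authors' deposited table. The cell cycle inhibitor gene Cdkn1a stood at -0.36 (SE 0.25) per the authors' deposited table and did not pass.

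Falls were fewer and, at a median of -0.66 for those with an SE of at most 0.5, smaller than the rises at 0.79. These medians cover genes that passed, and a larger SE needs a larger change to pass. Rises and falls numbered 103 and 93 at an SE of 0.15 to 0.2 but 38 and 14 at 0.3 to 0.5. The difference in size may thus come in part from the limit itself, which was not tested. The fall of largest test statistic was that of Prss23, a secreted serine protease gene, at -1.95 (SE 0.17, Benjamini-Hochberg adjusted p = 4.41e-27) per the authors' deposited table. It was followed by Cyp26b1, whose product breaks down retinoic acid, at -1.47 (SE 0.14, adjusted p = 5.17e-22) per the authors' deposited table. Cyp26b1 had nearly this value, -1.34 (SE 0.11), at 2 weeks, while Prss23 had -0.53 (SE 0.083), per the authors' deposited table for that time. Transcription factor genes among the 20 largest falls were Pknox2 (-1.61, SE 0.20), Cebpd (-1.34, SE 0.26) and Myc per the authors' deposited table. Others were Cdc42ep3, an effector of the cytoskeletal regulator Cdc42, at -1.45 (SE 0.18), and Entpd2, an ectonucleotidase gene, at -1.45 (SE 0.39) per the authors' deposited table. Klhdc7a (-2.12, SE 0.47), the cGMP-dependent kinase gene Prkg2 (-1.55, SE 0.39) and the retroviral restriction gene Fv1 (-1.57, SE 0.36) were lower as well per the authors' deposited table.

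Signalling pathways had a few members that fell. In the MAPK list, the feedback phosphatase gene Dusp6 fell by 0.85 on the log2 scale (SE 0.15) and the feedback inhibitor gene Spry2 by 0.75 (SE 0.21) per the authors' deposited table, and 1 of the 36 members, the early-response gene Ier3 (0.59, SE 0.19), rose. Of Hippo pathway genes and YAP targets 3 of 31 fell and 1 rose, with a median of -0.24. The falls were Axl, Gadd45b (-1.13, SE 0.23) and Fjx1 (-1.12, SE 0.25), and the rise was that of the YAP-binding gene Amot (1.25, SE 0.39), per the authors' deposited table. In the TGF-beta list, the feedback gene Pmepa1 fell by 1.57 on the log2 scale (SE 0.34), the transducer Smad3 by 0.55 (SE 0.17) and the procollagen protease Bmp1 by 0.74 (SE 0.23) per the authors' deposited table. These 3 were set against 1 rise among 25 members, that of Gdf15. Wnt genes had 2 of 28 lower, the receptor Fzd2 (-0.67, SE 0.17) and the repressor Tcf7l1 (-0.87, SE 0.22), and 1 higher, the secreted Dkk3 (5.26, SE 0.85), per the authors' deposited table. In the Notch list 2 of 13 fell, Maml3, a coactivator gene, at -0.80 (SE 0.26) and Neurl3 at -1.75 (SE 0.46) per the authors' deposited table.

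Matrix and adhesion genes went both ways. The aggrecan-cleaving proteases Adamts4 (-1.30, SE 0.21) and Adamts5 (-1.85, SE 0.38) and the related Adamts1 (-0.64, SE 0.15) fell, while the metalloprotease inhibitor gene Timp3 rose by 1.34 (SE 0.40), per the authors' deposited table. They were the 4 of 22 metalloprotease and inhibitor genes that passed. Matrix glycoproteins had 2 of 25 higher and 3 lower. The SPARC relative Sparcl1 (1.42, SE 0.24) and Fbln5 (1.20, SE 0.22), a gene of elastic fibres, rose, and the link protein gene Hapln1 (-3.16, SE 0.98) and the proteoglycan genes Agrn (-0.43, SE 0.14) and Sdc4 (-0.47, SE 0.13) fell per the authors' deposited table. Of the integrin list, Itgb5 fell by 1.18 on the log2 scale (SE 0.27) per the authors' deposited table, and the other member that passed, Itgb3bp, encodes a centromere protein. Protocadherins of the beta cluster were lower in 3 cases, Pcdhb16 (-0.86, SE 0.18), Pcdhb17 (-1.10, SE 0.30) and Pcdhb19 (-1.92, SE 0.57) per the authors' deposited table. They belong to a cluster of closely related genes, and whether the counting could tell these apart was not checked here. The 54 cadherin and protocadherin genes had a median of -0.54, or -0.34 over the 16 with an SE of at most 0.5. Of the 54 changes 19 were positive and 35 negative, and 0 genes passed higher.

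Of the contractile genes, Tpm1 (-0.63, SE 0.14), Actn1 (-0.67, SE 0.20) and Cald1 (-0.60, SE 0.16), which encode tropomyosin, alpha-actinin and caldesmon, fell, and the profilin gene Pfn2 rose (0.73, SE 0.24), per the authors' deposited table. The neuronal tubulin gene Tubb3 fell by 0.96 on the log2 scale (SE 0.24) per the authors' deposited table, and the alpha-tubulin gene Tuba4a was higher with an SE above 1 (adjusted p = 2.91e-08, from the authors' deposited table). Of the actin list 3 of 29 were thus lower and 3 higher, the remaining rises, Nexn and Afap1l1, having SEs above 1.

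**Figure D5:**
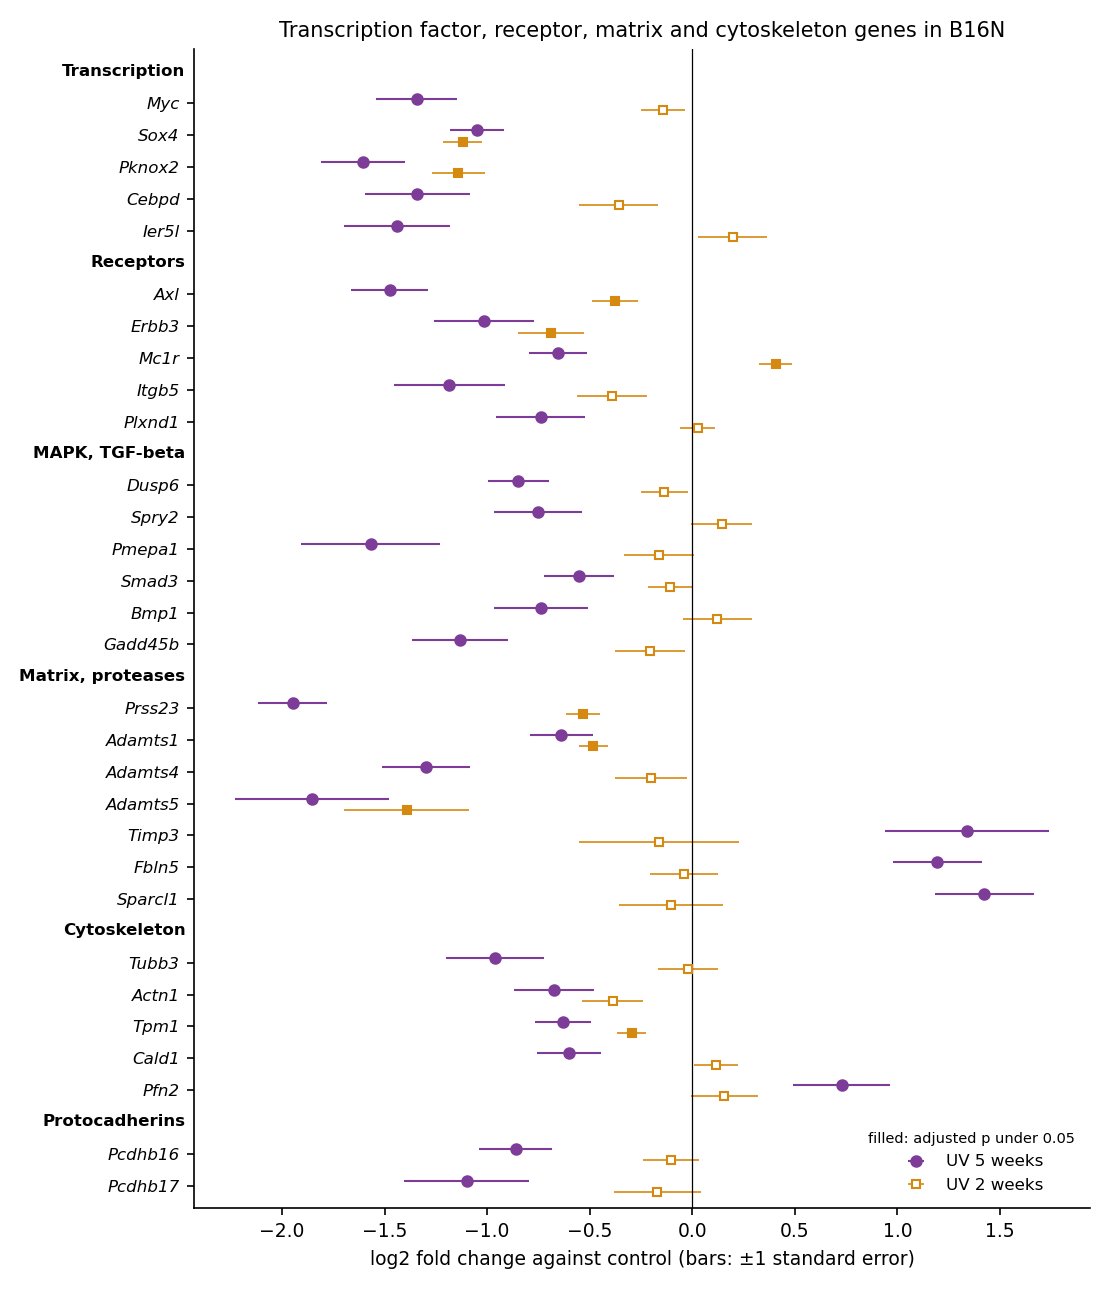
Log2 change against control (x axis) of transcription factor, receptor, signalling, matrix, cytoskeleton and protocadherin genes (y axis) after 5 weeks (circles) and 2 weeks (squares) of UV, with bars of 1 SE and filled marks for an adjusted p under 0.05. Prss23 and Adamts5 lie near -1.9 at 5 weeks, and Timp3, Fbln5 and Sparcl1 lie above 1.

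Calcium genes are of interest because the series is about Ca2+ signalling. Of 7 store-operated Ca2+ entry genes with values of their own, Orai2, a channel subunit, rose by 0.49 (SE 0.15) per the authors' deposited table. The ER Ca2+ sensor gene Stim2 (-0.05, SE 0.41) and the inhibitor gene Saraf (0.33, SE 0.18) did not pass per the authors' deposited table, and Stim1 shared the values of other symbols. Of 21 genes of Ca2+ release, pumps and mitochondrial uptake, 1 passed: the inositol trisphosphate receptor gene Itpr2 rose by 1.80 (SE 0.20, Benjamini-Hochberg adjusted p = 1.48e-15) per the authors' deposited table. Itpr2 stood at -0.05 (SE 0.15) after 2 weeks and at -3.08 in the Orai1 clone per the authors' deposited tables, all 3 against the same control. The calmodulin-dependent kinase kinase gene Camkk2 fell by 0.77 on the log2 scale (SE 0.16) per the authors' deposited table and was the single member of its 21 that passed. Of S100 and annexin genes, the Ca2+-binding S100a4 (2.50, SE 0.43) and S100b (0.86, SE 0.17) rose and Anxa2 (-0.60, SE 0.17) and Anxa11 (-0.71, SE 0.19) fell per the authors' deposited table. The phospholipase C gene Plch1, whose product makes inositol trisphosphate, was among the 20 largest rises at 2.16 (SE 0.49) per the authors' deposited table.

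Each immune list had between 1 and 3 members that passed, all of them higher. In the interferon list 3 of 35 were higher and 0 lower, the RNA sensor gene Ifih1 (3.70, SE 0.97) and the interferon-induced Ifitm3 (1.71, SE 0.35) and Ifi27 (0.94, SE 0.29) per the authors' deposited table. Of 24 chemokine, cytokine and NF-kB genes, Mif, a cytokine gene, rose by 0.93 (SE 0.17) per the authors' deposited table and 0 fell. The complement gene C2 rose by 2.42 (SE 0.53) per the authors' deposited table, the 1 of 7 in its list that passed. Of 14 MHC and antigen presentation genes 1 was higher, H2-DMb1, with an SE above 1. These shares lie at or above the 3.53% of all genes that passed higher, in lists too small to rank.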

How the data were processed

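For B16N the authors deposited comparisons in 3 tables, where each gene symbol has its log2 fold change, its test statistic (a score) and its p-value, per the file headers. The build was GRCm38, per the submitters' processing notes, while aligner, counting and test are not given in the sources used here. Each table holds no counts, so depth is unknown. All 382 symbols found only in this table had a negative deposited log2 fold change, so the sign was turned to give UV over control. Dividing the log2 fold change by the score gave the SE. Deposited p-values were adjusted by the Benjamini-Hochberg method over 14821 rows. Changes at 5 and 2 weeks were compared by a normal test of their difference with both SEs added in squares, adjusted likewise over 10166 genes. This treats both changes as independent although they share the control, and its effect on the count was not tested. In 64 sets of shared values that passed, the symbols also shared values in the other 2 tables.

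Members and the 78 gene lists were chosen with earlier results of these data known, and 8 lists were added after the values were seen. A list of histones under older symbols matched 0 rows. Named genes were up to 8 passing members per list, up to 4 others of lowest SE, and the 20 largest changes and 10 largest scores in each direction. Keap1, Hmox2, Blvra, Gpx8, Mthfd1l, Phgdh, Tfeb, Tfe3, Cdkn1a, Kdelr1, Kdelr2, Gstp1, Eif4ebp1, Slc9a3r2, passing genes with an SE above 1 and symbols with shared values were named after their values were seen. Alternatives were fold minimums of 1.5 and 4, an adjusted p of 0.01, SE limits of 0.5 and 0.3, shared values in or out and centring. Promoter motifs were not analysed here. The human tables were not used, and some genes under the rule are not reported here. On simulated data with known changes the procedure was tested first. Variation between replicate libraries was not tested there. Python 3.11.15, numpy 2.4.6, pandas 2.3.3, scipy 1.17.1 and matplotlib 3.10.9 were used.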

Additional observations from a re-analysis of the deposited data

Results flagged for a closer look

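The changes at 5 and at 2 weeks of UV, which share the control, were set against each other for each gene, and a gene is given here where a normal test of their difference had a Benjamini-Hochberg adjusted p under 0.05. Among the 10166 genes tested, 381 differed (3.75%), as given above. Of the genes named in the report and under the other observations, 84 differed with SEs of at most 1 at both times, 64 higher and 20 lower. They were named largely because they passed at 5 weeks, so this number is a description. With 1 sample per time the test compares these samples, and the differences below are on the log2 scale, computed from the authors' deposited tables as the change at 5 weeks minus that at 2 weeks.

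Of the glutathione genes, Slc7a11 had one of the largest differences, 3.52 (adjusted p = 3.03e-37), with Gclm at 1.81, Slc3a2 at 0.66, Mgst1 at 1.89, Gstm1 at 1.64 and Gstp2 at 0.79 from the authors' deposited tables. Gpx1 differed the other way, at -0.91. Of other redox genes, Cat differed by 1.02, Txn1 by 0.70, Aldh3a2 by 0.86 and Blvrb by 1.41 from the authors' deposited tables. The iron and metal genes that were higher at 5 weeks were Hmox1 (2.50), Slc48a1 (1.55), Fth1 (1.37), Slc40a1 (1.61), Steap2 (0.88), Mt2 (2.44) and Mt1 (1.13), and Cp was lower (-1.54), from the authors' deposited tables. The autophagy receptor gene Sqstm1 differed by 1.79.

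Stress response genes that were higher at 5 weeks were Trib3 (3.07), Atf5 (1.51), Xpot (1.34), Atf4 (1.06) and Eif4ebp1 (0.80) from the authors' deposited tables. In the ER, Kdelr3 (2.12), Herpud1 (1.23), Xbp1 (0.90), Atf6 (0.86) and Hsp90b1 (0.69) were higher from the authors' deposited tables. The differences of amino acid genes were 2.79 for Aldh1l2, 1.66 for Bcat1, 1.16 for Mthfd2, 1.06 for Shmt2, 0.96 for Psat1, 1.08 for Slc38a2, 0.73 for Slc38a1 and 1.02 for Sars from the authors' deposited tables. The chaperone gene Hspa9 was higher at 5 weeks by 0.72, while Hspb2 was lower (-0.85). Mdm2 differed by 0.71.

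Of the organelle genes, Lamp2 (1.30), Lipa (0.87) and Scpep1 (0.67) were higher at 5 weeks from the authors' deposited tables, as were the melanosome gene Mlana (0.52) and the mitochondrially encoded mt-Co1 (1.02) and mt-Nd4 (0.85). Lipid genes that were higher were Scd1 (1.39), Elovl4 (1.46), Fdps (1.04) and Cyp51 (0.66) from the authors' deposited tables. The elongation factor gene Eef2, counted among the commonly stable genes, differed by 0.47.

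Genes of vesicles, Ca2+ and receptors with higher values at 5 weeks were Sytl4 (3.85), Syt4 (1.23), Itpr2 (1.85), Plch1 (2.48), S100a4 (2.04), Gpr85 (2.91) and Gprc5b (2.86) from the authors' deposited tables. Further genes were Adh7 (4.34), Zfp534 (2.90), Cpeb1 (1.74), Maoa (1.56), Tph2 (1.46), Sparcl1 (1.53), Fbln5 (1.23) and Lgals8 (0.86).

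Besides Gpx1, Cp and Hspb2, the named genes that were lower at 5 than at 2 weeks are the following. From the authors' deposited tables, Myc differed by -1.20, Prkg2 by -2.02, Pmepa1 by -1.41, Dusp6 by -0.71, Spry2 by -0.90, Gadd45b by -0.93 and Fjx1 by -1.18. The receptor genes Axl (-1.10), Mc1r (-1.06) and Plxnd1 (-0.76), the protease genes Prss23 (-1.41) and Adamts4 (-1.10), and Pcdhb16 (-0.76) were lower. So were Tubb3 (-0.94), Cald1 (-0.72), Anxa2 (-0.74) and Fv1 (-1.51).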

How the results depend on the processing

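The number of genes that changed at least 2-fold with an adjusted p under 0.05 was 269, 222 higher and 47 lower, shared values included. Of them, 80 were gene list members with values of their own and 99 were among the named genes. A fold minimum of 1.5 gave 526, 358, 168, 157 and 179 of these, one of 4 gave 112, 109, 3, 32 and 32, and no fold minimum gave 708, 455, 253, 197 and 216. With an SE of at most 0.5 the total was 172 and the higher genes were 128, and with an SE of at most 0.3 the 5 numbers were 98, 72, 26, 35 and 46. The excess of higher genes held in each of these settings. Leaving out shared values, an adjusted p under 0.01 and centring on low-SE genes each kept these numbers within 1.5 times. For the gene lists, which leave shared values out, putting them in gave 98 members in place of 80. The 381 genes that differed between 5 and 2 weeks became 221 at an adjusted p under 0.01, a setting chosen after seeing the data, 413 with an SE of at most 0.5 at both times and 469 with shared values put in. Apart from centring, these settings only move a limit or change which genes are kept, so they could not change the direction of a named gene. Under the SE limits, and where shared values were left out, the adjustment was redone over the genes kept. Centring reversed none past the threshold. Of 219 genes named in the text, 41 no longer passed at an adjusted p under 0.01 and 2 under centring. Fold minimums of 1.5 and 4 left out 24 and 158 of them. No paired analysis was possible because each group is 1 sample. Unknown depth and libraries of 1 per group limit all values, and no replicate could be left out.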

Other observations

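Several further genes with large changes after 5 weeks of UV belong to groups that were put together after the values were seen, so their counts carry no support beyond the single genes. Of 6 synaptotagmin and synaptotagmin-like genes, which tether and fuse vesicles, Syt4 rose by 1.29 (SE 0.13, Benjamini-Hochberg adjusted p = 5.71e-21) and Sytl4 by 2.38 (SE 0.54) per the authors' deposited table, beside Sytl2. Of 5 monoamine enzyme genes 2 rose: the oxidase gene Maoa by 1.31 (SE 0.16) and the tryptophan hydroxylase gene Tph2 by 1.33 (SE 0.30) per the authors' deposited table. In retinoid metabolism, Adh7, an alcohol dehydrogenase gene that oxidises retinol, rose by 3.68 (SE 0.49) per the authors' deposited table while Cyp26b1, which degrades retinoic acid, fell, and these were the 2 of 14 genes that passed. Of 21 genes grouped by a Gpr symbol alone, 4 were higher and 0 lower. They were Gprc5b (2.52, SE 0.37), Gpr85 (2.45, SE 0.49), Gpr37 (1.60, SE 0.47) and Gpr137b-ps (1.25, SE 0.14) per the authors' deposited table. The last is a pseudogene by its symbol, so the count is not one of receptor genes. Of 60 histone genes, the linker histone gene H1f2 (1.69, SE 0.18) and the H2B gene H2bc4 (1.55, SE 0.27) rose per the authors' deposited table, and whether the counting could tell closely related histone genes apart was not checked here.

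Of 178 solute carrier genes 16 were higher and 2 lower, and those not yet described include the magnesium transporter gene Slc41a2 (2.35, SE 0.47) and the mitochondrial carrier gene Slc25a33 (0.80, SE 0.22) per the authors' deposited table. Of the lower pair, Slc9a3r2 encodes a scaffold and not a transporter, in spite of its symbol. Cpeb1, whose product controls the poly(A) tails of mRNAs, rose by 3.02 (SE 0.37) per the authors' deposited table. Zinc finger genes of the Zfp series had 8 of 302 higher and 6 lower, shares of the order of all genes, with Zfp534 (2.79, SE 0.46) the most precise of the large rises per the authors' deposited table. The mRNAs of tetraspanin Tspan10 (1.09, SE 0.22) and galectin Lgals8 (0.79, SE 0.14) rose and that of Tspan14 (-0.63, SE 0.14) fell per the authors' deposited table. Axon guidance genes had 1 of 35 higher, Sema4f (0.84, SE 0.19), and 1 lower, the semaphorin receptor gene Plxnd1 (-0.74, SE 0.22), per the authors' deposited table.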
